A study of Mus musculus with 12 samples.

Results

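The chemokine system of the mouse left ventricle was followed across all mouse gene symbols of the form Ccl, Cxcl, Ccr or Cxcr plus a number, with Cx3cl1, Cx3cr1, Xcl1 and Xcr1 added. The rule gave 58 symbols in the gene table, 40 ligands and 18 receptors, and used no measured value. Of these, 54 had a probe on the array and 41 passed the filter on dim probes, out of 25321 genes tested in all. Among the 25321, 16653 carried a gene symbol. The rest were single probes without a symbol, each counted as a gene in every share of all genes below. All mice were C57/Bl6, and the samples are of day 21 after surgery. The groups were wild-type mice after sham surgery, wild-type mice after trans aortic banding (TAC), and transgenic mice that overexpress CnAb1, a splice form of calcineurin A beta, after either operation. Banding narrows the aorta, so the left ventricle has to pump against a higher pressure. Each group held 3 single-colour arrays of left ventricular RNA. A separate time label reads 0 for the sham groups. The labels give neither the promoter that drives the transgene nor whether each array was a separate animal, so p-values measure the spread between arrays.

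Chemokines are small secreted or membrane-bound proteins that bind G protein-coupled receptors and direct the movement of leukocytes. They are named by the spacing of their first cysteines (CC, CXC, CX3C and XC), and most receptors bind several ligands of 1 family. Some ligands, such as Cxcl12, are made by resting tissue, while others are induced by inflammatory cytokines and interferons. In the pressure-overloaded heart the system is best known for drawing in monocytes, macrophages and T cells.

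Levels are log2 processed signals minus the 75th percentile of their array, so 0 is a spot as bright as that percentile and a difference of 1 is a doubling. Levels of different genes were not compared, because probes differ in brightness. Transgenic sham array 2 stood apart: negative controls averaged 48.6 there and 15.4 to 21.0 elsewhere, and 37.2% of its probes were well above background against 60.3% to 78.2% on the other arrays. Members that were not well above background on that array mostly sat near -4 there and have no order below -1.92, its dimmest signal well above background. On wild-type sham array 2 that limit was -4.16, against -6.36 to -5.75 on the other wild-type sham arrays. A spot can read above its array's limit and still not be well above background, so statements of overlap refer to the readings. The arrays lay on 5 slides, and no slide held all 4 groups. All 8 cardiomyocyte markers checked were well above background on all 12 arrays. Of these, 6 fell in wild-type TAC, against 12.5% of all genes tested, with a median change of -0.73. In transgenic TAC 0 of the 8 markers passed. Their summed linear level was 2460 to 2550 in wild-type sham, 1460 to 1640 in wild-type TAC, 1730 to 1950 in transgenic sham and 1590 to 1910 in transgenic TAC, and their part in the member changes was not tested. The 1 probe of Ppp3cb, the gene of the calcineurin A beta subunit, read 1.56 to 1.63 in wild-type sham, 1.22 to 1.34 in wild-type TAC, 1.17 to 1.40 in transgenic sham and 1.38 to 1.47 in transgenic TAC. Transgenic arrays lay below wild type after sham (difference -0.28, adjusted p = 0.178) and above it after TAC (0.14, adjusted p = 0.417), and neither difference passed. No source used here says whether that probe reads the transgene's transcript.

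Detection divided the family. On all 12 arrays, 16 of the 54 members with a probe were well above background: the CC ligands Ccl5, Ccl6, Ccl8, Ccl9, Ccl19, Ccl21a, Ccl21b, Ccl24, Ccl25 and Ccl27a, the CXC ligands Cxcl12, Cxcl14 and Cxcl16, the pair Cx3cl1 and Cx3cr1, and the receptor Ccr8. The filter kept probes that were well above background on 3 or more arrays and was passed by 26 ligands and 15 receptors. It was not passed by Ccl1, Ccl3, Ccl20, Ccl22, Ccl26, Ccl28, Cxcl2, Cxcl3, Cxcl15, Xcl1, Ccr1, Ccr4 and Xcr1, of which Ccl26, Cxcl15, Xcl1 and Ccr1 were well above background on 0 arrays. No probe matched Ccl21c, Ccl21d, Ccl27b or Cxcl11. Cxcl13, which draws B cells into lymphoid follicles, passed on 4 arrays, 1 of transgenic sham and 3 of transgenic TAC. It had to differ in their favour, so it is described and not counted as a result. The spots of Ccl17 and Ccl8 on transgenic sham array 2 were marked as outliers by the scanner software and left out, so their fits rest on 2 transgenic sham arrays.

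**Figure D1:**
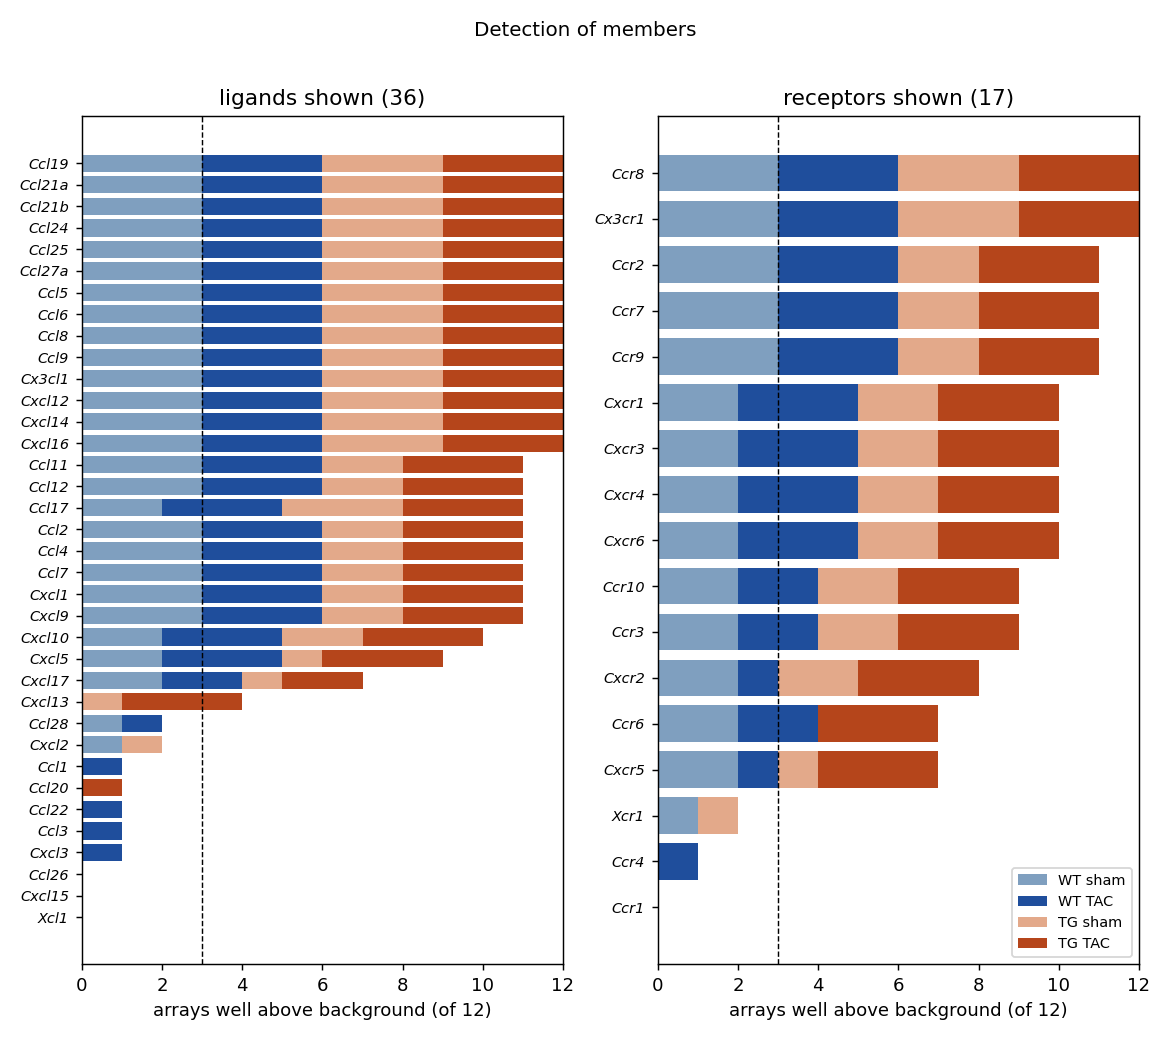
Number of arrays (x axis, of 12) on which each of 36 ligands and 17 receptors was well above background, stacked by group. The dashed line marks the filter of 3 arrays, which 40 of the members shown reached, and 4 members have no bar; the outlier-marked spots of Ccl17 and Ccl8 on transgenic sham array 2 are counted here.

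After TAC in wild-type hearts, 8 of the 41 tested members rose and 2 fell. Those that rose were the ligands Cxcl10, Ccl17, Cx3cl1, Ccl12 and Cxcl16 and the receptors Cxcr6, Ccr2 and Cxcr4, by 1.01 to 2.59 on the log2 scale, and those that fell were Ccl11 and Ccl27a. Over all genes tested, 8.7% rose and 12.5% fell at the same adjusted p of 0.05 (limma, Benjamini-Hochberg over 25321 genes). Wild-type TAC and wild-type sham arrays did not overlap for 14 members in the higher direction and 5 in the lower, against 17.6% and 29.4% of all genes. For 2 of these no order is known: Cxcl5 was not well above background on wild-type sham array 2, whose limit lies above 1 of its TAC values, and Cxcl13 was at background in both groups. The median change of the members was 0.32 and that of all genes -0.13. With normexp background correction 2 of the 10 calls were left, Cx3cl1 and Cxcl16, and with slide as a fixed block 0 of the 10. In heart tissue a change in the number of cells that make a transcript and a change in transcript per cell cannot be told apart.

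In transgenic hearts 0 of the 41 members passed between TAC and sham, in a comparison in which 0% of all genes rose and 0% fell by limma. At an unadjusted p under 0.05 there were 4 members and 1575 genes in all. The values of the transgenic TAC arrays lay above those of every transgenic sham array for 4 members, Ccl2, Ccl12, Cxcl10 and Ccr2, against 4.56% of all genes, and below them for 0 members, against 3.94%. For Cxcl10 and Ccr2 the order against transgenic sham array 2 is unknown, since all their TAC values are below its limit of -1.92. The median difference was 0.07 over the members. None of the 27 other settings tried gave a call for a member in transgenic hearts.

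**Figure D2:**
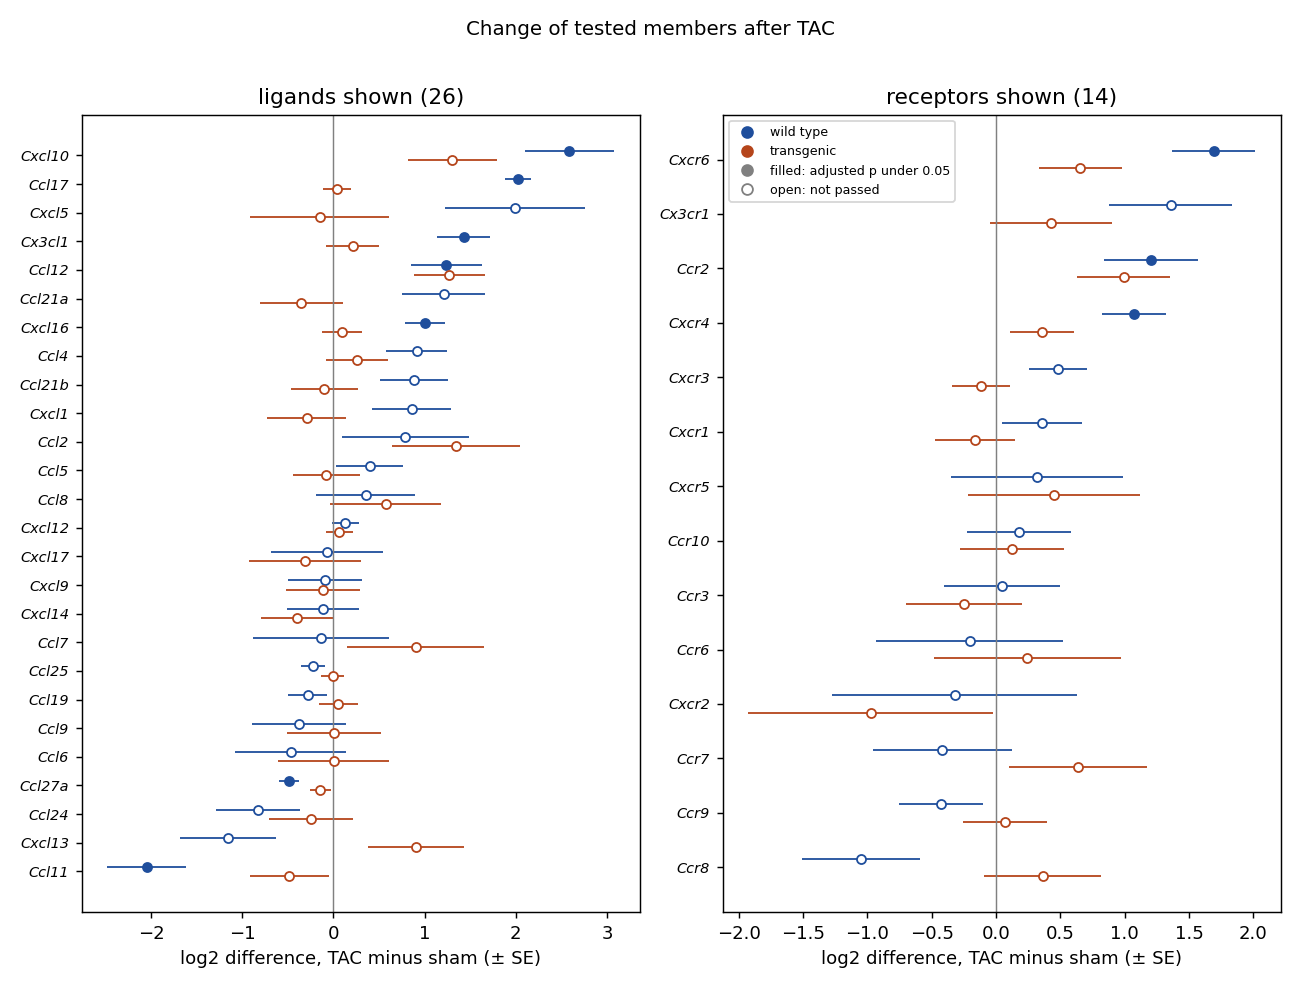
Log2 difference between TAC and sham (x axis, ± SE, 3 arrays per group, 2 transgenic sham arrays for Ccl17 and Ccl8) for 26 ligands and 14 receptors, in wild-type (blue) and transgenic (red) hearts. Filled points passed at an adjusted p under 0.05: 10 in wild type and 0 in transgenic.

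Cxcl10 had the largest rise. It is the interferon-inducible ligand of Cxcr3, a receptor of activated T cells and natural killer cells. Its promoter is shown because interferon-induced genes rose on the same arrays. The 250 bases upstream of its start site (RefSeq, GRCm38.p6) hold, in capitals from 5′ to 3′, an interferon-stimulated response element core (GAAANNGAAA), 2 matches to the NF-kappaB consensus and an AP-1 site (TGANTCA), searched on both strands with no overlap among them.
Cxcl10, chr5:92348890-92349139, minus strand: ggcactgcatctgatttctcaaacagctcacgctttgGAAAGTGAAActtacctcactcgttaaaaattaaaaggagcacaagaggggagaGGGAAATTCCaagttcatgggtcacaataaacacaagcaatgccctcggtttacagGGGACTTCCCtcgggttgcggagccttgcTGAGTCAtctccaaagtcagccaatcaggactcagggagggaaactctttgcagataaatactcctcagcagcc
Over 32851 promoter windows of this length the response element core occurred in 2.98%, the NF-kappaB consensus in 3.90% and the AP-1 site in 6.75%. Among the 42 members with a promoter in the table, 3 held the response element core, 8 the NF-kappaB consensus and 6 the AP-1 site. These 42 members had 49 windows, and a member counted if any of its windows matched. The member counts are therefore not on the same scale as the shares of windows. A match describes the letters only.

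Cxcl10 read -4.85, -5.32 and -4.64 on the wild-type sham arrays and -1.77, -3.70 and -1.58 after wild-type TAC, with array 2 nearest to sham. The change was 2.59 ± 0.49 (SE, adjusted p = 0.00648), a 6.02-fold rise. Wild-type sham array 2 was not well above background. Every TAC array read above every sham array and above that array's limit of -4.16. Without that array the rise was 2.40 (adjusted p = 0.0255). Transgenic hearts read -4.11, -4.14 and -4.84 after sham, the second of these not well above background, and -2.97, -3.33 and -2.88 after TAC. The TAC arrays were above the other 2 sham arrays, and the difference of 1.30 ± 0.49 (SE, adjusted p = 0.797) did not pass. The 2 responses differed by -1.29 ± 0.69 (SE, adjusted p = 0.28), which did not pass. Without wild-type TAC array 2 that difference was -1.96 with an adjusted p of 0.0252, and transgenic TAC then lay below wild-type TAC by 1.39 (adjusted p = 0.0377). With quantile normalization the wild-type rise was 2.51 and its adjusted p 0.0687.

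The other ligand of this group on the array, Cxcl9, is also induced by interferon-gamma. It read -1.91, -2.43 and -1.64 in wild-type sham and -2.11, -1.99 and -2.13 in wild-type TAC, and its difference was -0.09 ± 0.41 (SE, adjusted p = 0.912). The receptor Cxcr3 read -4.64, -3.88 and -4.27 in wild-type sham and -3.72, -3.67 and -3.95 in wild-type TAC, a difference of 0.48 ± 0.23 (SE, adjusted p = 0.164). Neither passed. The Cxcr3 groups overlapped only through wild-type sham array 2. Its reading of -3.88 was above that array's limit of -4.16 but not well above background, so its order against the TAC arrays is not known. The other 2 sham arrays lay below every TAC array. Of 20 interferon-induced genes tested, 9 rose and 0 fell in wild-type TAC, against 8.7% and 12.5% of all genes. Their median change was 0.59. Among those that rose were Oasl2 at 1.35 ± 0.15 (SE, adjusted p = 0.000921) and Isg15 at 1.22 ± 0.22 (SE, adjusted p = 0.00564). The summed linear level of the list was 13.3 to 15.7 in wild-type sham, 23 to 24.4 in wild-type TAC, 13.3 to 17.2 in transgenic sham and 14.3 to 19.7 in transgenic TAC, in units of the 75th percentile. In transgenic TAC 0 of the 20 passed. In the difference between the 2 responses 1 was higher and 3 were lower, against 4.18% and 2.9% of all genes. Ifit2 and Stat2 rose as well. Of the 12 NF-kappaB-induced genes tested, Relb, Nfkbia and Csf1 rose and 0 fell, against the same 8.7% and 12.5% of all genes. Il6 passed the filter only through the 3 wild-type TAC arrays, so that it had to be higher there, and is not counted. The summed level of this list was 13.5 to 15.7 in wild-type sham, 17.8 to 29.7 in wild-type TAC, 21.8 to 25.8 in transgenic sham and 14.9 to 15.6 in transgenic TAC. In the difference between the 2 responses 2 of its genes were lower, against 2.9% of all genes. They were Nfkbia at -1.72 ± 0.29 (SE, adjusted p = 0.0181) and Relb at -0.99 ± 0.25 (SE, adjusted p = 0.046). The part of interferon or NF-kappaB signalling in the Cxcl10 change was not tested.

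The membrane-bound ligands rose as well. Cx3cl1 (fractalkine) is made by endothelial cells and others, and can both tether and attract cells that carry Cx3cr1, such as monocytes and resident macrophages. It read 0.25, 0.10 and -0.02 in wild-type sham and 1.37, 1.01 and 2.24 in wild-type TAC, a rise of 1.43 ± 0.29 (SE, adjusted p = 0.00865) or 2.69-fold. In transgenic hearts it read 0.31, -0.26 and -0.11 after sham and 0.42, -0.11 and 0.27 after TAC, a difference of 0.21 ± 0.29 (SE, adjusted p = 0.886). Every wild-type TAC array was above every other array, while the remaining 3 groups overlapped. The rise kept its call in 26 of 27 other settings, the exception being slide as a fixed block (0.90, adjusted p = 0.154).

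Its receptor Cx3cr1 read -1.45, -1.23 and -1.34 in wild-type sham and -0.34, -0.13 and 0.52 in wild-type TAC. The groups did not overlap, and the difference of 1.36 ± 0.48 (SE, adjusted p = 0.0702) did not pass over all genes. Transgenic TAC read -1.74, -1.82 and -0.55, against -1.06, -1.47 and -2.86 in transgenic sham. The second Cx3cr1 probe gave a wild-type difference of 1.34. Transgenic sham array 3, the lowest of the set, is in neither wild-type group. Leaving it out does not change the wild-type difference but the spread estimated over all groups, and the adjusted p was then 0.0226.

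Cxcl16, the other membrane-bound ligand, binds Cxcr6 on T cells and natural killer T cells. It read -1.31, -1.22 and -1.57 in wild-type sham and -0.51, -0.49 and -0.09 in wild-type TAC, a rise of 1.01 ± 0.22 (SE, adjusted p = 0.0113). Cxcr6 itself read -3.48, -4.12 and -3.66 in wild-type sham and -2.05, -2.35 and -1.77 in wild-type TAC, a rise of 1.69 ± 0.32 (SE, adjusted p = 0.00667) or 3.23-fold. Neither gene's wild-type groups overlapped. Cxcr6 was not well above background on wild-type sham array 2, and without that array its rise was 1.51 (adjusted p = 0.0263). In transgenic hearts Cxcl16 differed by 0.09 ± 0.22 (SE, adjusted p = 0.934) and Cxcr6 by 0.66 ± 0.32 (SE, adjusted p = 0.801). Transgenic TAC array 3 was the highest of its group for both, at -0.60 for Cxcl16, below every wild-type TAC array, and at -2.30 for Cxcr6, among them. The second Cxcr6 probe gave a wild-type difference of 1.67. If outlier spots were kept, that probe became the brighter one, with a marked spot at 9.21 on transgenic sham array 3, and the Cxcr6 call was lost (adjusted p = 0.744).

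Markers of the cells that carry these receptors did not all move with them. Of 12 T and natural killer cell markers tested, 0 rose and 1 fell (Cd4), against 8.7% and 12.5% of all genes, and the median change was -0.41. The list's summed level was 11.1 to 12.7 in wild-type sham, 7.27 to 7.94 in wild-type TAC, 9.86 to 11.5 in transgenic sham and 7.95 to 9.58 in transgenic TAC, and Cd3e was well above background on all 12 arrays. Of 8 endothelial markers, 4 rose (Emcn, Cdh5, Tie1 and Egfl7) and Kdr fell, with a median of 0.54, and their summed level was 39.2 to 46.9 in wild-type sham and 51.4 to 61.9 in wild-type TAC. The part of these cells in the changes of Cx3cl1, Cxcl16 and Cxcr6 was not tested.

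Ccl17 gave the smallest p of all members. It is a ligand of Ccr4, a receptor of type 2 helper and regulatory T cells. Ccl22, the other ligand of Ccr4, lies next to Cx3cl1 among protein-coding genes in RefSeq's GRCm38.p6 order, and Ccl17 lies next to Cx3cl1 on its other side. The promoters of these neighbours are shown because Cx3cl1 and Ccl17 both rose. Capitals mark a gamma-activated site (TTCNNNGAA, 7.02% of the 32851 windows) in Ccl17, while none of the response element, gamma-activated, NF-kappaB or AP-1 motifs was in the Cx3cl1 window.
Cx3cl1, chr8:94771930-94772179, plus strand: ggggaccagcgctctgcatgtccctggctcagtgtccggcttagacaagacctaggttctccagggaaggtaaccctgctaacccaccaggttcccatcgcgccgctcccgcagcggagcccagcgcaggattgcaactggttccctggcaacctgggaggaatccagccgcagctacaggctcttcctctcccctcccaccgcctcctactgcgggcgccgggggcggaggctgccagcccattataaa
Ccl17, chr8:94810203-94810452, plus strand: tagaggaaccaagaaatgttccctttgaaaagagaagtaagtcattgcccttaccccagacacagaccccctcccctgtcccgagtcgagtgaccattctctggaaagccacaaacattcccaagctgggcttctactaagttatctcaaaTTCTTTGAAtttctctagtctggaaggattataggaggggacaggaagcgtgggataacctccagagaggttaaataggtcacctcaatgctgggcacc
The NFAT core (GGAAA), searched because calcineurin activates NFAT factors, was in the Ccl17 and Cxcl10 windows, where it is not capitalised and overlaps the response element and an NF-kappaB match in Cxcl10, and in 55.6% of all windows.

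Ccl17 read -5.04, -5.12 and -5.19 in wild-type sham, in a narrow range, and -3.28, -3.10 and -2.89 in wild-type TAC. Array 2 of wild-type sham was not well above background, and without it the rise below was 2.03 (adjusted p = 0.00252). Transgenic hearts read -4.91 and -4.70 on the 2 usable sham arrays and -4.97, -4.65 and -4.68 after TAC. All 3 wild-type TAC arrays were above all other arrays, and the transgenic groups overlapped. The wild-type rise was 2.03 ± 0.14 (SE, adjusted p = 0.000414), or 4.07-fold, and the transgenic difference 0.04 ± 0.16 (SE, adjusted p = 0.961). The difference between the 2 responses was -1.99 ± 0.21 (SE, adjusted p = 0.0125), the 1 interaction that passed among members. Transgenic TAC lay below wild-type TAC by 1.67 ± 0.14 on the log2 scale (SE, adjusted p = 0.00107). Leaving out any 1 array kept all of these calls.

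The Ccl17 calls rest on leaving out 1 spot. The spot on transgenic sham array 2, which the scanner software marked as an outlier, read -0.23, above every other array. With it kept, the wild-type rise stayed at 2.03 but its SE went to 0.99 and its adjusted p to 0.183, and the interaction, at -3.51, did not pass. The wild-type groups themselves did not overlap either way. The deposited values gave 2.05 (adjusted p = 0.182), and normexp background correction 1.18 (adjusted p = 0.122). Ccl22 was well above background on wild-type TAC array 2 alone, at -0.73, and lay between -8.42 and -4.00 on the other 11 arrays. Ccr4 was well above background on wild-type TAC array 3 alone, at -5.21. Of 6 dendritic cell markers tested, 0 rose and 0 fell in wild-type TAC, against 8.7% and 12.5% of all genes, with a median of 0.26.

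**Figure D3:**
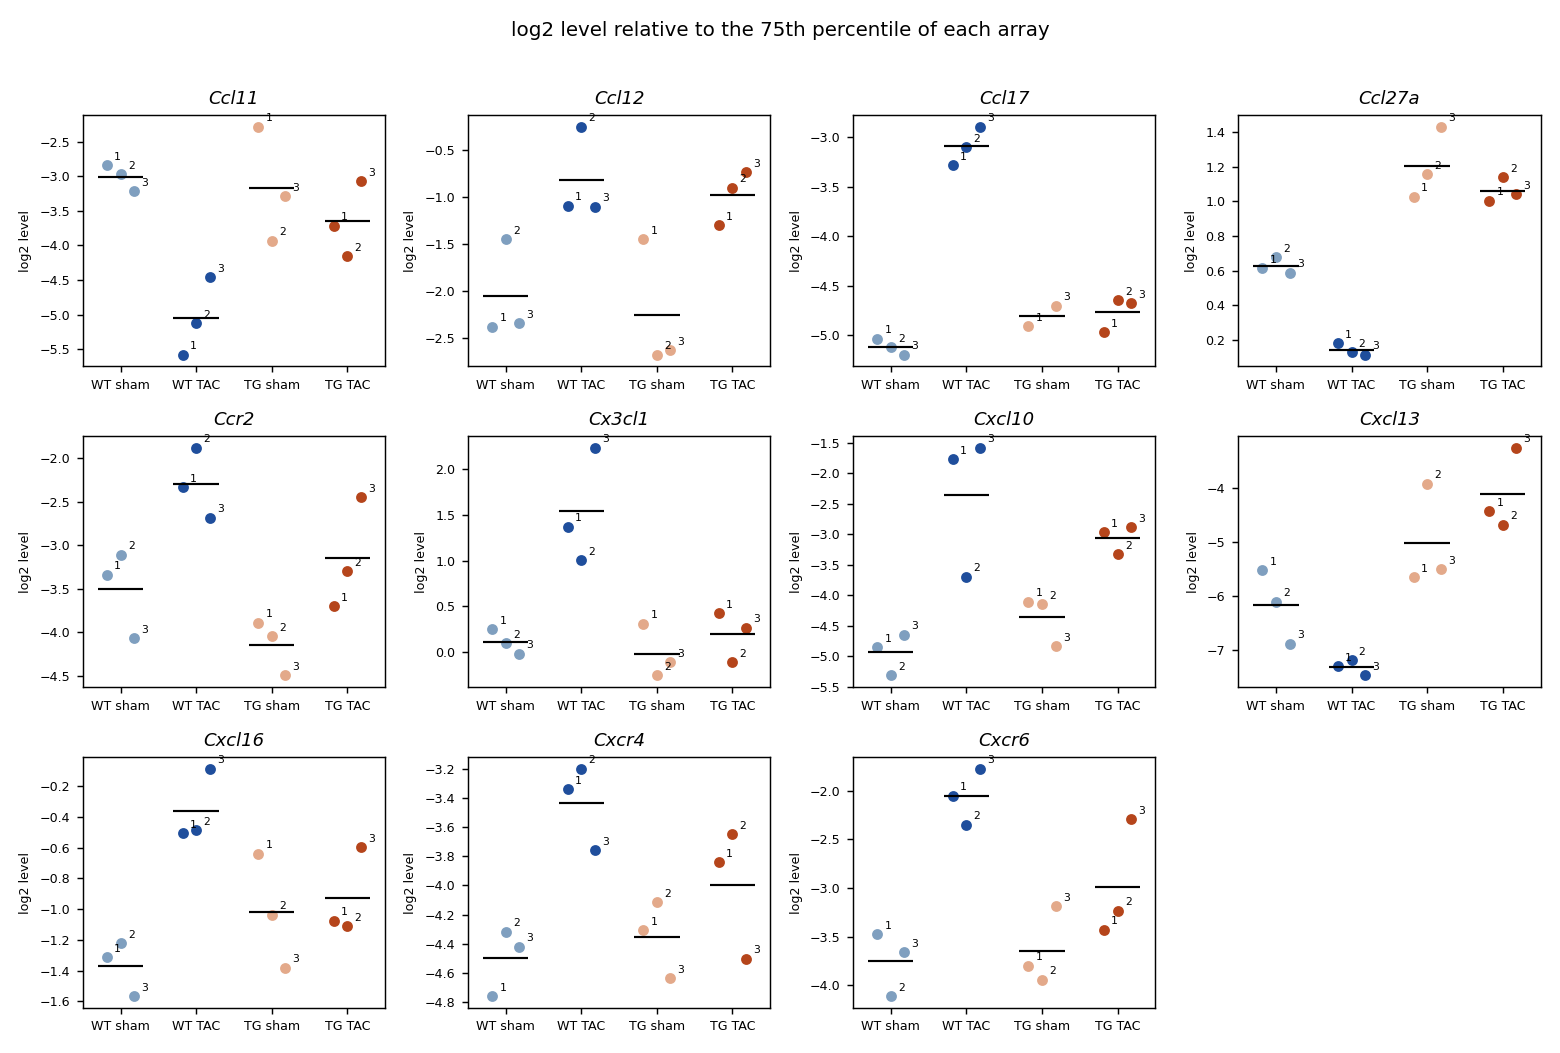
Levels (y axis, log2 relative to the 75th percentile of each array) of the 10 members that passed in at least 1 comparison and of Cxcl13, in 4 groups; points are arrays numbered by replicate and bars are group means. For Ccl17, Cx3cl1 and Cxcl16 all 3 wild-type TAC arrays are above all other arrays, while for Cxcr6 transgenic TAC array 3 lies among them; the y axes differ, and 1 transgenic sham point of Ccl17 was left out as an outlier.

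Of the Ccr2 axis, which releases and recruits inflammatory monocytes, the receptor and 1 of its ligands, Ccl12, rose. Ccr2 read -3.34, -3.11 and -4.07 in wild-type sham and -2.33, -1.88 and -2.68 in wild-type TAC, a rise of 1.21 ± 0.36 (SE, adjusted p = 0.0414). Ccl12, a mouse ligand of Ccr2, read -2.38, -1.45 and -2.34 in wild-type sham and -1.09, -0.25 and -1.10 in wild-type TAC, a rise of 1.24 ± 0.39 (SE, adjusted p = 0.0492). The TAC and sham arrays did not overlap for either gene. In transgenic hearts Ccl12 read -1.45, -2.67 and -2.63 after sham and -1.30, -0.90 and -0.73 after TAC, and Ccr2 -3.89, -4.05 and -4.49 and -3.70, -3.30 and -2.45. The differences were 1.27 ± 0.39 (SE, adjusted p = 0.797) and 0.99 ± 0.36 (SE, adjusted p = 0.797). Neither difference passed. The Ccl12 groups did not overlap, but the -2.67 of transgenic sham array 2 was not well above background. The size of the Ccl12 difference rests in part on that reading. The Ccr2 value of transgenic sham array 2 was not well above background and has no order against the TAC values. The responses of the 2 genotypes differed by 0.03 ± 0.55 for Ccl12 and -0.21 ± 0.51 for Ccr2, with adjusted p of 0.98 and 0.836.

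Both wild-type calls lay near the threshold. Ccl12 lost its call without any 1 of wild-type sham array 1 or 3, wild-type TAC array 1, 2 or 3, or transgenic TAC array 1, 2 or 3, with adjusted p of 0.0605 to 0.154 and changes of 0.96 to 1.38. Ccr2 lost its call without wild-type sham array 1 or 3, wild-type TAC array 1, 2 or 3, or transgenic TAC array 2, with adjusted p of 0.0576 to 0.140 and changes of 0.92 to 1.40.

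Ccl2 and Ccl7, other ligands of Ccr2, varied between arrays of a group. Ccl2 (MCP-1), the best known of them, read -1.14, -0.52 and -0.79 in wild-type sham and -1.01, 1.53 and -0.60 in wild-type TAC, where array 2 stood above the rest. Its wild-type difference was 0.79 ± 0.70 (SE, adjusted p = 0.486), and its transgenic one, from -0.64, -2.74 and -0.94 to -0.34, -0.47 and 0.52, was 1.35 ± 0.70 (SE, adjusted p = 0.804). The -2.74 of transgenic sham array 2 was not well above background, so the size of the transgenic difference rests in part on a background reading. Ccl7 read -1.68, -0.68 and -1.66 in wild-type sham and -2.21, 0.46 and -2.67 in wild-type TAC, again with array 2 highest, and differed by -0.13 ± 0.75 (SE, adjusted p = 0.929). Ccl8 differed by 0.35 ± 0.54 (SE, adjusted p = 0.715) in wild type and 0.57 ± 0.61 (SE, adjusted p = 0.861) in transgenic hearts, where 2 sham arrays were used. None of these passed. Of 14 macrophage and monocyte markers tested 3 rose (Fcgr1, Aif1 and Adgre1) and 0 fell in wild-type TAC, against 8.7% and 12.5% of all genes. The median over these markers was 0.34. Their summed level was 47.1 to 48.3 in wild-type sham, 49.3 to 57.7 in wild-type TAC, 45.1 to 57.2 in transgenic sham and 50.3 to 58.2 in transgenic TAC, and their part in the Ccr2 and Ccl12 changes was not tested.

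The inflammatory CC ligands that draw monocytes and activated T cells, among them those of Ccr1, gave no call. Ccl4 read -4.45, -3.98 and -4.49 in wild-type sham and -3.65, -3.31 and -3.23 in wild-type TAC, without overlap, and differed by 0.91 ± 0.34 (SE, adjusted p = 0.0845). Ccl5 (RANTES) differed by 0.40 ± 0.37 (SE, adjusted p = 0.506), from -1.14, -1.35 and -1.63 to -1.07, -0.66 and -1.20, with overlapping groups. Ccl3 was well above background on wild-type TAC array 2 alone, and Ccr1 on 0 arrays. Ccl6 and Ccl9, myeloid ligands of Ccr1, were well above background throughout. Ccl6 read 0.80, 1.17 and 0.51 in wild-type sham, 0.26, 1.5 and -0.69 in wild-type TAC, 0.82, 1.14 and 2.55 in transgenic sham and 0.73, 2.08 and 1.70 in transgenic TAC, so that the groups overlapped. Its wild-type difference was -0.47 ± 0.61 (SE, adjusted p = 0.655) and that of Ccl9 -0.38 ± 0.51 (SE, adjusted p = 0.671).

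Ccl11 (eotaxin-1), which draws eosinophils through Ccr3 and is made by fibroblasts and other stromal cells, fell the most of all members. It read -2.84, -2.97 and -3.22 in wild-type sham and -5.58, -5.13 and -4.46 in wild-type TAC, a fall of 2.05 ± 0.43 (SE, adjusted p = 0.0103) to 0.242 of the sham level. In transgenic hearts it read -2.28, -3.93 and -3.29 after sham and -3.71, -4.16 and -3.07 after TAC, a difference of -0.48 ± 0.43 (SE, adjusted p = 0.837). The wild-type groups were separate and the transgenic groups overlapped, but the 2 responses differed by 1.56 ± 0.61 (SE, adjusted p = 0.145), which did not pass. Leaving out any 1 array kept the wild-type call. With normexp background correction it was -0.19 (adjusted p = 0.772). Ccl24 (eotaxin-2) read -1.91, -2.11 and -1.73 in wild-type sham and -2.85, -1.81 and -3.57 in wild-type TAC and differed by -0.83 ± 0.46 (SE, adjusted p = 0.244). Ccr3 differed by 0.05 ± 0.45 (SE, adjusted p = 0.956). Of 3 eosinophil markers tested 0 passed. Of 10 fibroblast markers 7 rose and 0 fell, against 8.7% and 12.5% of all genes, with a median change of 1.55.

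Ccl27a, a ligand of Ccr10, was the other member that fell. It read 0.61, 0.68 and 0.59 in wild-type sham, 0.18, 0.13 and 0.12 in wild-type TAC, 1.03, 1.16 and 1.43 in transgenic sham and 1.00, 1.14 and 1.04 in transgenic TAC. The wild-type TAC arrays were the lowest and every transgenic array was above every wild-type array. The wild-type fall was 0.49 ± 0.11 (SE, adjusted p = 0.0158), and its other 2 probes gave differences of -0.58 and -0.46, while the transgenic difference was -0.14 ± 0.11 (SE, adjusted p = 0.828). The wild-type call was lost without wild-type sham array 1 (-0.49, adjusted p = 0.0536), wild-type sham array 2 (-0.46, 0.0541) or wild-type TAC array 3 (-0.47, 0.0551), and with median scaling (adjusted p = 0.0952). The mouse genome holds near-identical copies of this gene, among them Ccl27b, so the probes may read more than 1 gene. Ccr10 differed by 0.18 ± 0.41 (SE, adjusted p = 0.81) in wild type, and Ccl28, its other ligand, was well above background on 2 arrays.

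Among ligands of resting and lymphoid tissue, Cxcl12 is the stromal ligand that retains Cxcr4-bearing cells. Cxcl12 read 4.04, 4.38 and 4.02 in wild-type sham and 4.22, 4.32 and 4.30 in wild-type TAC, a difference of 0.13 ± 0.15 (SE, adjusted p = 0.607), while its second probe gave 0.83. The 2 probes thus disagree in size, and no call is drawn from the second. Cxcr4 read -4.76, -4.32 and -4.42 in wild-type sham and -3.34, -3.20 and -3.76 in wild-type TAC, a rise of 1.07 ± 0.25 (SE, adjusted p = 0.0151) without overlap. In transgenic hearts Cxcr4 read -4.31, -4.12 and -4.64 after sham and -3.84, -3.65 and -4.50 after TAC, a difference of 0.36 ± 0.25 (SE, adjusted p = 0.811). Cxcr4 was not well above background on wild-type sham array 2, whose limit lay below every wild-type TAC value, and without that array its rise was 1.16 (adjusted p = 0.0305). The wild-type call of Cxcr4 was lost without wild-type sham array 1 (0.94, adjusted p = 0.0619).

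Ccl21a and Ccl21b, near-identical ligands of Ccr7 that lymphatic endothelium makes to guide dendritic cells and T cells, may not be told apart by these probes. Ccl21a read 3.19, 3.59 and 3.27 in wild-type sham and 3.86, 4.09 and 5.73 in wild-type TAC, where array 3 stood far above the others. The difference was 1.21 ± 0.45 (SE, adjusted p = 0.0888), and that of Ccl21b 0.89 ± 0.37 (SE, adjusted p = 0.122). Of 5 lymphatic endothelial markers 2 rose, Pdpn and Flt4, against 8.7% of all genes, with a median of 0.81. The list's summed level was 1.51 to 1.99 in wild-type sham and 2.43 to 4.58 in wild-type TAC, and its part in the Ccl21a values was not tested. Ccl19, the other Ccr7 ligand, differed by -0.28 ± 0.21 (SE, adjusted p = 0.406), and its 3 probes did not share a sign. Ccr7 differed by -0.42 ± 0.54 (SE, adjusted p = 0.655).

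Cxcl13, the B cell attractant, was well above background on 0 wild-type arrays. It read -5.52, -6.11 and -6.89 in wild-type sham, -7.30, -7.20 and -7.48 in wild-type TAC, -5.66, -3.93 and -5.51 in transgenic sham and -4.43, -4.68 and -3.26 in transgenic TAC. Only the transgenic TAC arrays and transgenic sham array 3 were well above background, and the -3.93 of transgenic sham array 2 lies in that array's raised background. Transgenic TAC was at least 3.13-fold higher than wild-type TAC, measured against the dimmest signal well above background on each wild-type TAC array. The direction was set by the filter, so no test is given. Its receptor Cxcr5 differed by 0.47 ± 0.67 (SE, adjusted p = 0.741) between the same groups, and of 5 B cell markers tested 0 passed in any comparison. The B cell list's summed level was 0.618 to 0.794 in wild-type TAC and 0.507 to 1.04 in transgenic TAC.

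The remaining members of this kind gave no call after TAC. Cxcl14 read 0.76, 1.23 and 1.22 in wild-type sham and 1.21, 1.18 and 0.48 in wild-type TAC and differed by -0.11 ± 0.39 (SE, adjusted p = 0.882). Ccl25, the ligand of Ccr9, differed by -0.22 ± 0.13 (SE, adjusted p = 0.271) and Ccr9 by -0.43 ± 0.33 (SE, adjusted p = 0.409), and the wild-type TAC arrays of both lay below the wild-type sham arrays. Ccr8, the receptor of Ccl1, read -1.25, -1.18 and -0.37 in wild-type sham and -1.04, -2.75 and -2.17 in wild-type TAC, a difference of -1.05 ± 0.46 (SE, adjusted p = 0.137) and of -0.47 on its dimmer probe. Ccr8 passed in wild type without wild-type TAC array 1 (-1.52, adjusted p = 0.0379). Ccr6, the receptor of Ccl20, differed by -0.21 ± 0.73 (SE, adjusted p = 0.885), and Cxcl17, a ligand of mucosal tissue, by -0.07 ± 0.62 (SE, adjusted p = 0.954). Xcl1, a lymphocyte ligand, was well above background on 0 arrays, and its receptor Xcr1, a marker of cross-presenting dendritic cells, on 2.

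Among the ligands that carry the ELR motif and draw neutrophils through Cxcr2, Cxcl5 and Cxcl3 set wild-type TAC array 2 apart. Cxcl5 read -5.42, -4.90 and -5.62 in wild-type sham and -4.16, -1.38 and -4.42 in wild-type TAC, where array 2 was highest. Wild-type sham array 2 was not well above background, and the difference of 1.99 ± 0.76 (SE, adjusted p = 0.0948) did not pass. Cxcl1 read -4.27, -3.83 and -4.46 in wild-type sham and -3.80, -2.93 and -3.26 in wild-type TAC without overlap, and differed by 0.86 ± 0.43 (SE, adjusted p = 0.195). Cxcl3 was well above background on that array alone, at -3.73, as were Ccl1, Ccl3 and Ccl22. Cxcl2 was well above background on wild-type sham array 2 and transgenic sham array 1 only.

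The receptors of these ligands gave no call. Cxcr2 read -5.54, -3.33 and -6.57 in wild-type sham and -6.59, -3.66 and -6.15 in wild-type TAC, again with array 2 highest, but with groups that overlapped. It differed by -0.32 ± 0.95 (SE, adjusted p = 0.86). Wild-type sham array 3 and wild-type TAC arrays 1 and 3 were not well above background, so that difference rests in part on readings at background. Cxcr1 differed by 0.36 ± 0.31 (SE, adjusted p = 0.479). Of 6 neutrophil markers tested 0 passed in wild-type TAC, with a median of -0.23, and their summed level was 33.4 to 36.6 in wild-type sham and 28.4 to 35.7 in wild-type TAC. Without wild-type TAC array 2, 8 members passed in wild type: the calls of Ccl12 and Ccr2 were lost, and no other member was added.

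**Figure D4:**
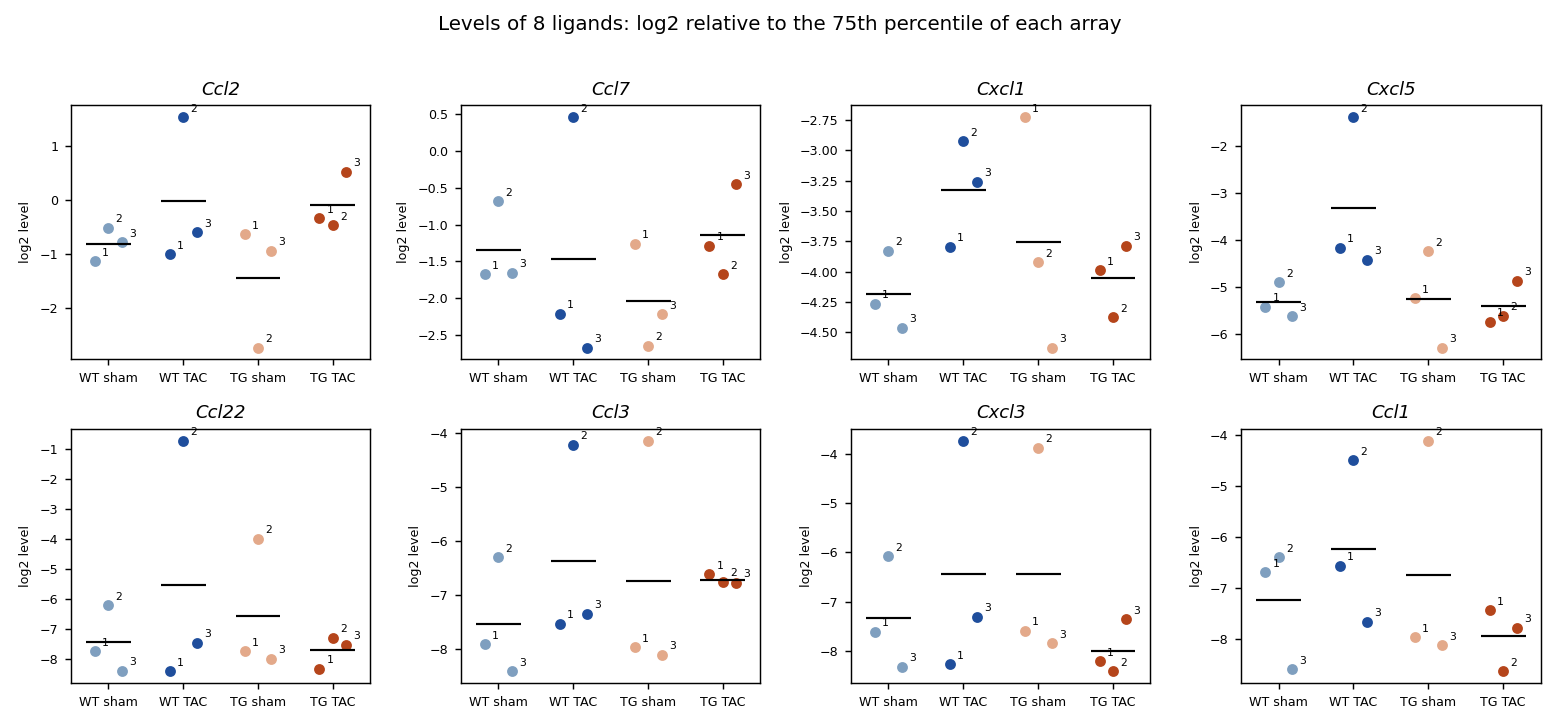
Levels (y axis, log2 relative to the 75th percentile of each array) of 8 ligands in 4 groups; points are arrays numbered by replicate and bars are group means, and the y axes differ. Wild-type TAC array 2 is the highest of its group for every ligand shown, for example at 1.53 for Ccl2 against -1.01 and -0.60 on the other 2 arrays; the transgenic sham array 2 points near -4 lie on an array with raised background.

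Between the genotypes after sham surgery 1 of 41 members was higher and 0 were lower, against 0.774% and 0.663% of all genes. That member was Ccl27a, at 0.58 ± 0.11 (SE, adjusted p = 0.0433). This call was lost without any 1 of 11 of the 12 arrays, transgenic sham array 1 being the exception, with adjusted p of 0.0546 to 0.172 and differences of 0.47 to 0.61. The median difference over the members was 0.15 and over all genes -0.05.

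After TAC, 1 member was higher in transgenic than in wild-type hearts, Ccl27a, and 2 were lower, Ccl17 and Cx3cl1, against 2.14% and 1.86% of all genes. Cxcl13, whose direction the filter fixed, is left out of this count. Ccl27a differed by 0.92 ± 0.11 (SE, adjusted p = 0.00472) and kept its call whichever array was left out. Cx3cl1 was lower by 1.35 ± 0.29 (SE, adjusted p = 0.0379), and lost its call without any 1 of the transgenic TAC arrays, the wild-type sham arrays, or wild-type TAC array 1 or 3, with adjusted p of 0.0594 to 0.104 and differences of -1.46 to -0.998. The transgenic TAC arrays lay above all wild-type TAC arrays for 6 members, Cxcl13 included, and below them for 8, against 19.4% and 13.7% of all genes. Among those below that did not pass were Cx3cr1 at -1.39 ± 0.48 (SE, adjusted p = 0.123), Cxcl16 at -0.57 ± 0.22 (SE, adjusted p = 0.161), Ccl21a at -1.30 ± 0.45 (SE, adjusted p = 0.128) and Cxcl5 at -2.08 ± 0.76 (SE, adjusted p = 0.144). Among those above were Ccl11 at 1.41 ± 0.43 (SE, adjusted p = 0.0955) and Ccr8 at 1.42 ± 0.46 (SE, adjusted p = 0.106). The median difference was -0.07 over the members and 0.05 over all genes.

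The interaction, the transgenic response to TAC minus the wild-type one, passed for 0 members in the higher direction and for 1, Ccl17, in the lower, against 4.18% and 2.9% of all genes. At an unadjusted p under 0.05 there were 7 members and 6466 genes. The next were Cxcl16 at -0.92 ± 0.31 (SE, adjusted p = 0.0998) and Cx3cl1 at -1.22 ± 0.41 (SE, adjusted p = 0.101). Cxcl16 passed without transgenic sham array 3 (-1.10, adjusted p = 0.0493). The remaining wild-type calls, those of Cxcr6, Cxcr4, Ccl12, Ccr2, Ccl11, Cxcl10 and Ccl27a, were not shown to differ between genotypes by this test. The comparisons share arrays, so their lists are not independent of one another.

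Genes that handle chemokines or carry their signal were also counted, from a list of 30 of which 29 were tested. In wild-type TAC 7 rose and 2 fell, against 8.7% and 12.5% of all genes, with a median change of 0.39. Those that rose included the scavenging receptors Ackr4, at 1.57 ± 0.35 (SE, adjusted p = 0.0119), and Ackr2, at 1.34 ± 0.37 (SE, adjusted p = 0.0288), which take up chemokines without G protein signalling, and the receptor kinase Grk5, at 1.11 ± 0.23 (SE, adjusted p = 0.0087). Gnai3, Pik3r5 and Lyn were also among those that rose. Those that fell were Rgs2, a regulator of G protein signalling, at -1.18 ± 0.26 (SE, adjusted p = 0.0116), and Ccrl2, which binds chemerin, at -1.04 ± 0.28 (SE, adjusted p = 0.025). In transgenic hearts 0 of 29 passed, and in the interaction 0 were higher and 1, Gnai3, was lower, at -1.05 ± 0.27 (SE, adjusted p = 0.0484).

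Slide was shared unevenly between the groups. Slide 3 held wild-type sham arrays 1 and 2, the second with the raised limit of -4.16, and wild-type TAC array 2, set apart above. It also held transgenic sham array 2, the array with raised background. The wild-type groups of the 10 members that passed did not overlap, so the sign within this slide was fixed and does not test slide. Differences there were, for example, 1.98 for Ccl17, 0.83 for Cx3cl1, 1.39 for Cxcl10, 1.45 for Cxcr6, -2.22 for Ccl11 and -0.52 for Ccl27a. Slide 2 held wild-type TAC arrays 1 and 3, transgenic TAC array 3 and a transgenic sham array. Between its TAC arrays Ccl17 differed by -1.59, Cx3cl1 by -1.54 and Ccl27a by 0.90. The TAC groups of these genes did not overlap, so these signs were fixed as well. Cxcl5 differed by 3.78 within slide 3, where the 1 wild-type TAC array was array 2, the highest of its group for this gene. Its value on wild-type sham array 2 was not well above background. With slide as a fixed block 1 member passed in wild-type TAC, Cxcl5 at 3.23 (adjusted p = 0.0497), and 0 in the other comparisons. In all, 547 genes passed in wild-type TAC. In that fit Ccl17 stood at 1.98 (adjusted p = 0.0513), Cxcr6 at 1.53 (0.0529), Cxcr4 at 1.30 (0.0542) and Ccl11 at -2.66 (0.0601). With slide as a random block 11 members passed in wild-type TAC.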

How the data were processed

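Array files hold spot intensity from Feature Extraction 10.7.3.1, per the file headers: the processed signal, background-subtracted by the authors' scanner software. The deposited table states no scale. The deposited values match log2 processed signals centred on each gene's median (correlation at least 0.999, slope at least 0.997 over genes), so its scale, centring and direction were read from that match, and its column medians run from -0.05 to 0.06. It served as an alternative. The submitters' processing notes name RMA. Its role is not stated there.

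Outlier-marked spots were left out, spots of a probe averaged, and each array's 75th percentile subtracted. Accessions were matched to symbols with RefSeq's GRCm38.p6 gene table. Probes that passed the scanner's well-above-background test on 3 or more arrays were kept, with the brightest probe per gene. A probe without a symbol was kept as a gene of its own. limma 3.58.1 (R 4.3.3) fitted 4 group means over 12 arrays, with two-sided moderated tests and Benjamini-Hochberg adjustment over 25321 genes. The number of arrays limits the precision. Members, lists and tests were chosen with earlier results of these data known. Named genes are members that passed, the 5 largest changes each way per comparison, and a fixed set of ligands and receptors. The steps were tested on simulated data. Counts cover all members and listed genes, but some of them are not reported here by name. Same-numbered arrays did not deviate together (correlations -0.39 to 0.17), so replicate numbers do not pair arrays. Promoter sequences are RefSeq's, GRCm38.p6. The files hold median spot signals, which normexp used.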

Additional observations from a re-analysis of the deposited data

Results flagged for a closer look

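The response of Ccl17 to TAC differed between the genotypes, with a transgenic minus wild-type difference of -1.99 on the log2 scale by limma's interaction term. It rests on leaving out 1 outlier-marked spot, as described.

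Some members that did not pass the filter were well above background on a single array and read above every wild-type sham reading. On wild-type TAC array 2 these were Ccl22 at -0.73, Cxcl3 at -3.73, Ccl3 at -4.22 and Ccl1 at -4.48. Ccl20 reached -4.29 on transgenic TAC array 3, and Ccr4 -5.21 on wild-type TAC array 3. For Ccl1, Ccl3, Ccl20 and Ccr4 the order against wild-type sham array 2 is unknown, since these values lie below its limit of -4.16. No other array of those groups showed them above background.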

How the results depend on the processing

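Of 27 other settings, 12 left out 1 array each. In transgenic TAC against sham 0 members passed in all of them. In wild-type TAC, 10 members as reported, the count was 2 with normexp (Cx3cl1 and Cxcl16). With a filter of all 12 arrays it was 5 of 16 members tested. Of the 10 calls, only those of Cx3cl1, Cxcl16 and Ccl27a could be tested under that filter. The count was 5 with a common floor (an alternative chosen after seeing the data), 18 with array weights and 1 with slide as a fixed block. For transgenic against wild type after sham, 1 as reported, it was 0 with median scaling, normexp, no filter, the mean over probes, array weights, the compared groups alone, a replicate block and slide as a fixed block. After TAC, 4 as reported when Cxcl13 is included, it was 0 with normexp, 2 with the common floor, 9 with array weights and 0 with slide as a fixed block. For the interaction, 1 as reported, it was 0 with normexp, the deposited table, outlier spots kept, the common floor and slide as a fixed block. With the filter of all 12 arrays it was 2 of 16 members tested, and Ccl17, the call as reported, was not among those tested. Leaving out 1 array gave 6 to 12, 0 to 1, 2 to 5 and 1 to 2 in these 4 comparisons, and without wild-type sham array 1 the wild-type count was 6.

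No call of a named member changed sign. Cx3cl1 and Cxcl16 in wild-type TAC were each lost in 1 of 27 settings. Over all genes in wild-type TAC, 2204 were higher and 3173 lower as reported, 2204 and 1994 with quantile normalization and 308 and 239 with slide as a fixed block, and the median of all genes was 0.24 with normexp and -0.13 as reported. Replicate numbers do not pair the arrays; with them as a replicate block 8, 0, 0, 3 and 1 members passed in the 5 comparisons in the order above, transgenic TAC second. Under the common floor 65 changes of named members have no value, since both groups lie at the floor. Dim members are limited by signal over background, most of all on transgenic sham array 2.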
